A study of Mus musculus with 4 samples.

Results

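Glycolysis and hypoxia-response genes were followed through 4 sorted populations of mouse neural cells. The list holds 35 genes: 22 for glucose transport, glycolysis and the fate of pyruvate and lactate, 11 of the response to low oxygen, and the alpha subunits Hif1a and Epas1 of the hypoxia-inducible factor (HIF). The members were chosen by name, with earlier results of these data known. Of the 35, 33 were measured, out of 19938 genes with a transcript cluster (the probe set of one gene on the array) that carries a single gene symbol. Gpi1 and Eno1 had no such cluster and were not analysed here. Where a gene had several clusters, the brightest one was used.

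Each population was hybridized once to an Affymetrix whole-transcript array, so that no value below has a replicate, an error or a test, and precision is limited by having only 4 arrays. The first pair of populations came from a 129SVEV mouse ESC line with GFP knocked in at the Lmx1a locus. These cells were differentiated as floating aggregates by the SFEBq method, in a pyruvate-containing medium with FGF8b and SHH and later ascorbic acid and BDNF, and sorted on day 9, within the LMX1A::GFP+ gate, into a CORIN+LMX1A::GFP+ and a CORIN-LMX1A::GFP+ population. The second pair was sorted with CORIN alone from the ventral midbrain (VM) of C57BL/6N mouse fetuses on E11.5. CORIN is a floor plate surface protein, and at least 100000 cells were sorted for each RNA. The main reading was the ESC-derived minus fetal difference in log2 signal, taken once in the CORIN+ populations (the CORIN+ pair) and once in the CORIN- populations (the CORIN- pair). The origin of the cells goes together with the mouse strain, culture against tissue, developmental stage and the LMX1A::GFP gate, and these cannot be told apart.

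Glycolysis splits glucose into pyruvate in the cytosol, and lactate dehydrogenase turns pyruvate into lactate when it is not passed on to the mitochondria. When oxygen is plentiful, prolyl hydroxylases mark the HIF alpha subunits for destruction through the VHL ubiquitin ligase. When oxygen is short, the alpha subunits persist, pair with ARNT and bind the hypoxia response element of genes for glucose uptake, glycolysis, blood vessel growth and the prolyl hydroxylases themselves.

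The arrays had nearly the same median signal (7.97 to 8.03 over all clusters). Corin itself had log2 signals of 13.10 (CORIN+) and 11.13 (CORIN-) in the ESC-derived populations, against 11.43 (CORIN+) and 7.28 (CORIN-) in the fetal VM, and Lmx1a was not analysed here. The fetal CORIN+ array stood apart from the other 3 in macrophage and mesenchyme markers. The mean log2 signal of 14 macrophage markers was 6.51 in the ESC-derived cells and 10.14 in the fetal cells of the CORIN+ pair, and all 14 were at least 2-fold lower in the ESC-derived cells of that pair, against 0 of 14 in the CORIN- pair. Of 12 mesenchyme markers, 11 were at least 2-fold lower in the CORIN+ pair and 0 in the CORIN- pair, where 3 were at least 2-fold higher. The mean of 6 erythroid markers was 6.72 and 6.74 in the ESC-derived populations, against 10.80 in fetal CORIN+ and 9.29 in fetal CORIN- cells. All 10 neuron markers were lower on both ESC-derived arrays, with means of 10.10 and 10.68, than on both fetal arrays, with means of 11.69 and 12.27. Floor plate and midbrain markers, the identity the sorts were aimed at, mostly ran the other way. Of 12 measured, 7, Corin among them, were at least 2-fold higher in the ESC-derived cells of both pairs (1.91% of all genes). The 12 had median differences of 1.26 and 1.30. Their means were 11.99 and 11.59 in CORIN+ and CORIN- ESC-derived cells, against 10.95 and 9.96 in fetal CORIN+ and CORIN- cells. En1 was lower on both ESC-derived arrays (-0.44 and -0.24), and Otx2 was nearly level (0.13 and 0.02). Msx1 had -0.64 in the CORIN+ pair and 0.56 in the CORIN- pair. In such bulk RNA, fewer cells of a type and less RNA per cell cannot be told apart. The part of these cell types, floor plate cells included, in the differences below was not tested. The CORIN- pair gives each difference without the array rich in macrophage and mesenchyme markers. That pair holds the ESC-derived CORIN- array, which had the highest mean of 8 pluripotency markers (8.80, against 6.81 to 6.92 on the other arrays). The part of pluripotent cells in the differences was not tested either.

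Most of the members were higher in the ESC-derived cells. In the CORIN+ pair, 13 of 33 measured members were at least 2-fold higher, where 2.98% of all genes were, and 0 were at least 2-fold lower (4.37% of all genes). In the CORIN- pair, 15 of 33 were at least 2-fold higher (4.54% of all genes) and 0 were lower (3.52%). A set of 11 members passed 2-fold in both pairs, which is 33.3% of those measured against 1.91% of all genes, and 0 were 2-fold lower in both (2.09% of all genes). The 11 were the transporters Slc2a1, Slc2a3 and Slc16a3, the enzymes Pfkl, Aldoc, Tpi1 and Pdk1, and the hypoxia-response genes Bnip3, Egln3, P4ha1 and Ddit4. Both ESC-derived arrays lay above both fetal arrays for 28 of 33 members (31.9% of all genes) and below them for Hk1 and Ldhb only (29% of all genes), while Ndrg1, Hif1a and Epas1 overlapped. The members were mostly bright genes, with a median at percentile 85.2 of the mean signal, and among the genes above the median signal 2.54% passed 2-fold upwards and 3.09% downwards in both pairs. At any size, 28 of 33 members were higher in both pairs, against 36.8% of all genes.

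**Figure D1:**
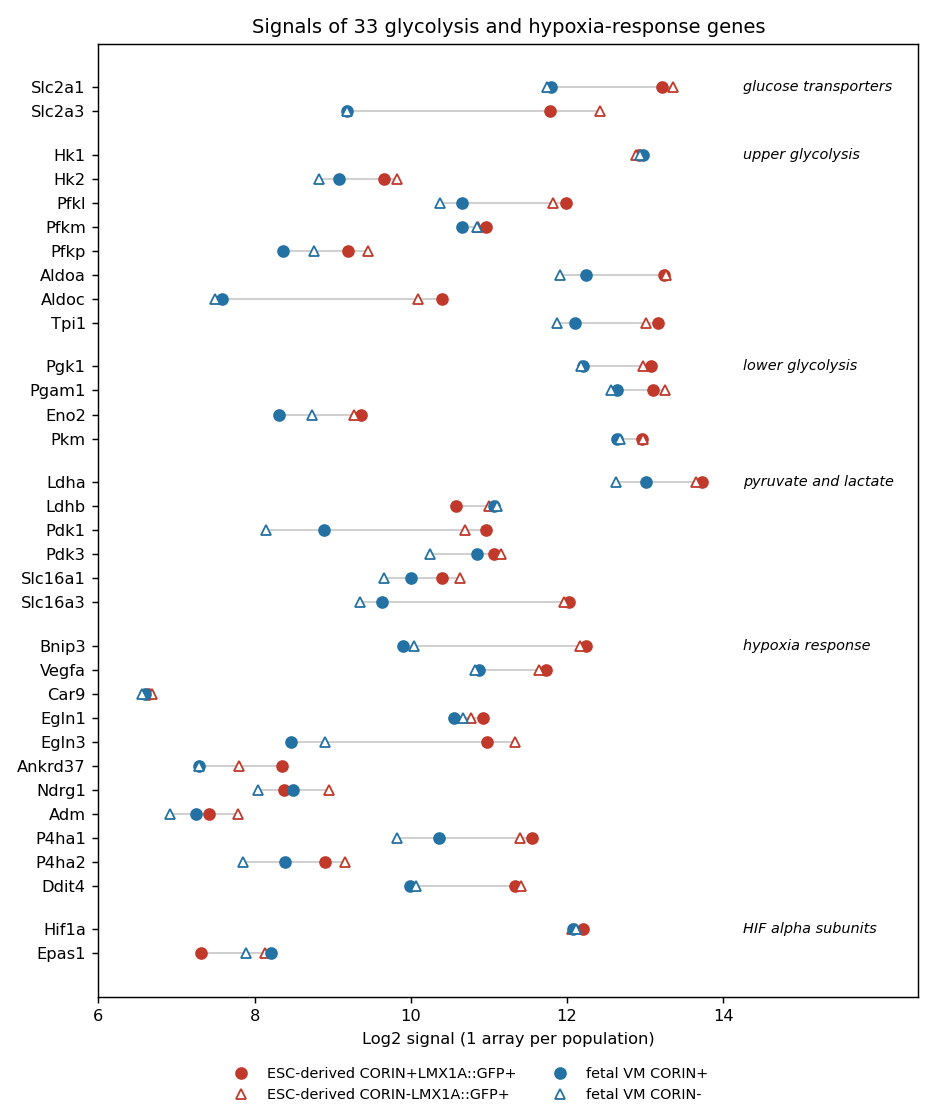
Log2 signal (horizontal axis) of each of the 33 measured members in ESC-derived cells (red) and fetal VM (blue), with filled circles for CORIN+ and open triangles for CORIN- populations, 1 array each. Grey lines join the lowest and the highest array of a gene. Red symbols lie to the right of blue ones for 28 members, and only Hk1 and Ldhb have both red symbols on the left.

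Glucose enters cells through facilitative transporters, and both of those on the list rose. Slc2a3 encodes GLUT3, the high-affinity transporter of neurons and early embryos. Its log2 signal was 11.78 in CORIN+ and 12.42 in CORIN- ESC-derived cells, against 9.18 in both fetal populations. The difference was 2.60 in the CORIN+ pair and 3.24 in the CORIN- pair (6.06- and 9.46-fold), and the mean of both ranked 21 among all genes. Pluripotency markers also varied in these cells, with a mean over 8 genes of 6.87 (CORIN+) and 8.80 (CORIN-) in ESC-derived cells, against 6.81 (CORIN+) and 6.92 (CORIN-) in the fetal VM. Of the 8, 5 passed 2-fold upwards in the CORIN- pair (4.54% of all genes) and 0 in the CORIN+ pair (2.98%). The part of pluripotent cells in the values of Slc2a3 was not tested. Slc2a1 encodes GLUT1, the broadly expressed transporter and a HIF target. It had signals of 13.22 and 13.36 in CORIN+ and CORIN- ESC-derived cells and of 11.80 and 11.74 in fetal CORIN+ and CORIN- cells. The differences were 1.43 and 1.62 (2.69- and 3.08-fold), and the populations of one origin lay close together.

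Upper glycolysis runs from the phosphorylation of glucose to the triose phosphates. Of the 8 measured members, 3 passed 2-fold upwards in the CORIN+ pair (2.98% of all genes) and 5 in the CORIN- pair (4.54%). The median differences were 0.91 and 1.08. Isozymes of one step were not alike in their differences. Hk1, the hexokinase of most brain cells, had signals of 12.92 and 12.88 in the CORIN+ and CORIN- ESC-derived cells, against 12.97 and 12.94 in the fetal ones, a difference of -0.06 in each pair. The second cluster of Hk1, at 10.25 and 10.15 in ESC-derived cells and 9.87 and 10.18 in fetal cells, gave 0.38 and -0.03 with overlapping origins, and Hk1 also stands in 16 clusters with several symbols, which were not used. Hk2, the inducible hexokinase, had 9.66 and 9.82 in ESC-derived cells and 9.08 and 8.82 in fetal cells, which gives a difference of 0.58 in the CORIN+ pair and a fold of 2.01 in the CORIN- pair. Among the subunits of phosphofructokinase, which commits sugar to glycolysis, only the liver type Pfkl passed 2-fold. Pfkl was at 11.98 and 11.82 in CORIN+ and CORIN- ESC-derived cells, against 10.65 and 10.37 in fetal cells, with differences of 1.33 and 1.44. The muscle type Pfkm differed by 0.30 and 0.00 in the CORIN+ and CORIN- pairs, and the platelet type Pfkp by 0.84 and 0.69.

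The aldolases, which cut fructose bisphosphate, showed the same unevenness. Aldoc, the isozyme of brain, had signals of 10.40 and 10.09 in CORIN+ and CORIN- ESC-derived cells, against 7.58 and 7.49 in fetal cells. Its differences of 2.81 and 2.60 (7.03- and 6.07-fold) ranked 33 by their mean among all genes, and no other member had as large a difference in the CORIN+ pair. Aldoa, the widely expressed isozyme, was at 13.24 and 13.26 in ESC-derived cells and 12.25 and 11.91 in fetal cells, so that it missed 2-fold in the CORIN+ pair (0.99) and passed it in the CORIN- pair (1.35). Tpi1, which interconverts the triose phosphates, was at 13.16 and 13.02 in CORIN+ and CORIN- ESC-derived cells, against 12.10 and 11.87 in the fetal cells. It was just past 2-fold in both pairs, with 1.06 and 1.15.

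Lower glycolysis, which yields ATP and pyruvate, moved less. The median difference of its 4 measured members was 0.66 in the CORIN+ pair and 0.61 in the CORIN- pair. In both pairs, 0 of 4 passed 2-fold (1.91% of all genes), a count that does not set so few genes apart. Eno1, also listed for this part, was not analysed, nor was Gapdh, which is no member. All 4 were nevertheless higher on both ESC-derived arrays than on both fetal arrays, as were 31.9% of all genes. Pgk1, the first ATP-yielding enzyme, had 13.07 and 12.97 in CORIN+ and CORIN- ESC-derived cells, against 12.20 and 12.18 in fetal cells, or 0.87 and 0.79. Pgam1, a mutase, differed by 0.46 and 0.69. The neuronal enolase Eno2 had 9.36 and 9.27 in ESC-derived cells, against 8.31 and 8.73 in fetal CORIN+ and CORIN- cells, and passed 2-fold in the CORIN+ pair only (1.05 and 0.54). Its difference stood beside lower neuron markers in the same ESC-derived cells. Pkm, which makes pyruvate, was at 12.96 and 12.98 in ESC-derived cells and 12.64 and 12.68 in fetal cells, a difference of 0.32 and 0.30. Many glycolytic genes have processed pseudogenes, and how far the probes tell these apart is not given in the sources used here. In the 6 members with several clusters, the other clusters stayed on the same side of 2-fold in both pairs (0.55 and 0.40 for the second cluster of Pkm). The 3 clusters of Pgk1 had nearly the same signal on each array.

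At the branch after pyruvate, Pdk1 and Slc16a3 rose in both pairs and Ldha in the CORIN- pair, while Ldhb, Pdk3 and Slc16a1 were within 2-fold in both. Pdk1 encodes the kinase that switches off pyruvate dehydrogenase, the entry to the mitochondrial cycle. Its signal was 10.96 in CORIN+ and 10.69 in CORIN- ESC-derived cells, against 8.88 (CORIN+) and 8.14 (CORIN-) in the fetal VM. The differences of 2.08 and 2.55 (4.22- and 5.84-fold) ranked 58 by their mean. Other kinases of the family had smaller differences: Pdk3 had 0.21 in the CORIN+ pair and 0.90 in the CORIN- pair, Pdk2 had 0.35 and 0.36, and Pdk4 had 0.50 and 0.39. Slc16a3 encodes MCT4, the lactate exporter of glycolytic cells. It was at 12.02 and 11.96 in CORIN+ and CORIN- ESC-derived cells, against 9.64 and 9.35 in fetal cells, with differences of 2.39 and 2.61 (5.23- and 6.09-fold). Its relative Slc16a1, which encodes MCT1, had 0.40 and 0.98, and Slc16a7, which encodes MCT2, had -1.13 and -0.39. Pdk2, Pdk4 and Slc16a7 are no members and were named as relatives of members after their values had been seen.

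The subunits of lactate dehydrogenase differed in opposite directions, though Ldhb by little in the CORIN- pair. Ldha, whose product favours the making of lactate, had signals of 13.72 and 13.65 in CORIN+ and CORIN- ESC-derived cells, against 13.02 and 12.62 in fetal CORIN+ and CORIN- cells. Its difference was 0.71 in the CORIN+ pair (1.63-fold) and 1.03 in the CORIN- pair (2.04-fold). Ldhb, whose product favours the use of lactate, had 10.57 in CORIN+ ESC-derived cells, with a CORIN+ minus CORIN- difference of -0.43 in that origin, against 11.06 and 11.10 in CORIN+ and CORIN- fetal cells. Its differences of -0.49 and -0.10 were within 2-fold, and both ESC-derived arrays lay below both fetal arrays.

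The 20 measured transport and glycolysis members had median differences of 0.85 in the CORIN+ pair and 0.99 in the CORIN- pair, beside medians of 0.02 and -0.01 over all genes. Of these 20, 8 passed 2-fold upwards in the CORIN+ pair (2.98% of all genes), 10 in the CORIN- pair (4.54%) and 7 in both (1.91%). Both ESC-derived arrays were above both fetal arrays for 18 of the 20 (31.9% of all genes). The gap between the nearest arrays of both origins ran from 0.003 (Pfkm) to 2.60 (Slc2a3) in these 18.

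**Figure D2:**
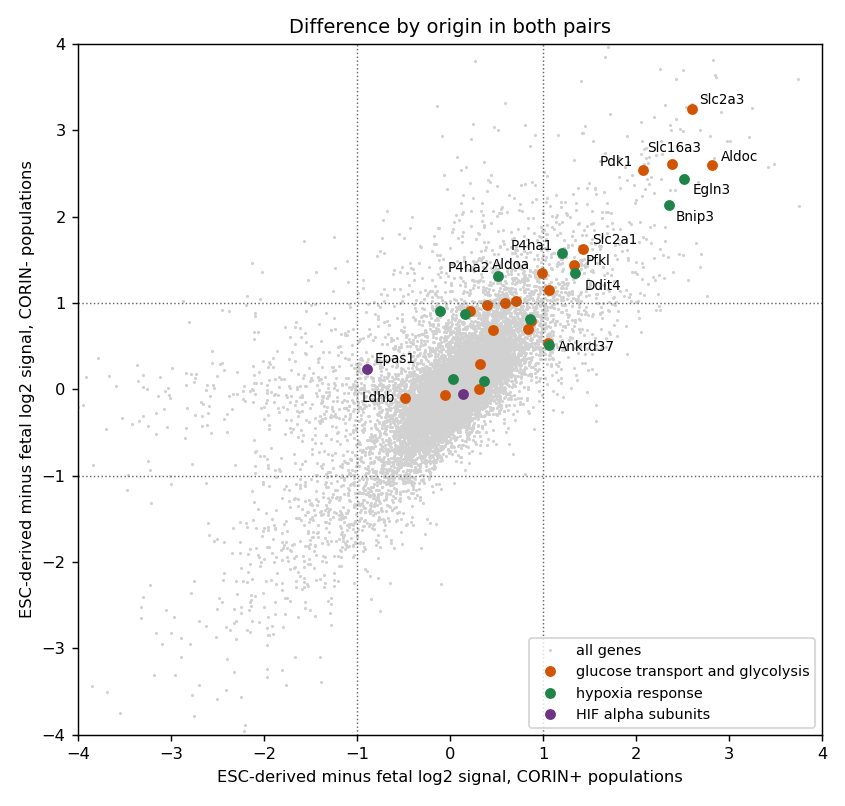
ESC-derived minus fetal difference in log2 signal in the CORIN+ pair (horizontal axis) and in the CORIN- pair (vertical axis) for all 19938 genes (grey) and the members (coloured by role). Dotted lines mark 2-fold, genes beyond the axes are not drawn, and the 11 members in the upper right field passed 2-fold in both pairs while no member lies past 2-fold on the lower side.

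The hypoxia-response members were set apart from the enzymes because they do not carry the glycolytic flux. Of these 11, 5 passed 2-fold upwards in each pair (2.98% of all genes in the CORIN+ pair and 4.54% in the CORIN- pair). In both pairs, 4 passed (36.4%, against 1.91% of all genes), and the medians were 0.86 and 0.90. Both ESC-derived arrays were above both fetal arrays for 10 of the 11 (31.9% of all genes). The gap between the nearest arrays of both origins ran from 0.03 (Car9) to 2.13 (Bnip3) in these 10. The members that moved came from different branches of the response.

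Egln3 encodes PHD3, a prolyl hydroxylase that marks HIF alpha subunits for destruction and is itself a HIF target. It had signals of 10.97 and 11.33 in CORIN+ and CORIN- ESC-derived cells, against 8.46 and 8.90 in fetal cells, with differences of 2.51 and 2.43 (5.70- and 5.39-fold). Egln1, which encodes the main oxygen sensor PHD2, had 10.92 and 10.78 in ESC-derived cells and 10.55 and 10.67 in fetal cells, or 0.36 and 0.10. Egln2, a further hydroxylase of the family and no member, had 0.04 and -0.28, and it was named after its values had been seen. Thus Egln3 was past 5-fold in both pairs, while Egln1 and Egln2 were within 2-fold. Bnip3 encodes a mitochondrial protein of mitophagy. Its signal was 12.25 and 12.17 in CORIN+ and CORIN- ESC-derived cells, against 9.90 and 10.04 in fetal cells, a difference of 2.35 and 2.13, and its second cluster gave 2.21 and 2.45.

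P4ha1 and P4ha2 encode catalytic subunits of the collagen prolyl hydroxylases. P4ha1 was at 11.56 and 11.40 in CORIN+ and CORIN- ESC-derived cells, against 10.36 and 9.82 in fetal CORIN+ and CORIN- cells, which gives 1.20 and 1.58. P4ha2 was at 8.90 and 9.16 in ESC-derived cells and at 8.39 and 7.85 in fetal cells, so that it passed 2-fold in the CORIN- pair (1.31) and not in the CORIN+ pair (0.51). The fetal CORIN+ cells, in which both genes were higher than in fetal CORIN- cells, also had the higher mean of the mesenchyme markers (10.72 against 8.49). Ddit4, also known as REDD1, encodes an inhibitor of mTORC1 that responds to low oxygen and to other stresses. Its signals of 11.33 and 11.41 in CORIN+ and CORIN- ESC-derived cells, against 9.99 and 10.07 in fetal cells, gave 1.35 and 1.34. Both populations of each origin were nearly equal for this gene.

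Not every classical target of HIF was far apart. Vegfa, the growth factor of blood vessels, had 11.73 and 11.64 in CORIN+ and CORIN- ESC-derived cells, against 10.87 and 10.83 in fetal cells, and at 0.86 and 0.81 it was below 2-fold in both pairs. Car9, a carbonic anhydrase that is strongly induced in hypoxic tumours, was at 6.63 and 6.68 in ESC-derived cells and at 6.60 and 6.56 in fetal cells. These signals lay near the 20th percentile of the genes on each array (6.42 to 6.49), and without background values no presence or absence can be stated for Car9. Ankrd37, an ankyrin repeat protein, had 8.35 and 7.80 in ESC-derived cells, against 7.29 in both fetal populations, and passed 2-fold in the CORIN+ pair only (1.06 and 0.51). The peptide hormone Adm had 0.16 and 0.87. Ndrg1, a stress-response gene, had 8.37 and 8.95 in CORIN+ and CORIN- ESC-derived cells, against 8.49 and 8.05 in fetal cells, so that its difference was -0.12 in one pair and 0.90 in the other.

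The transcripts of Hif1a and Epas1, the HIF alpha subunits on the list, did not differ in this way. Hif1a was at 12.21 and 12.06 in CORIN+ and CORIN- ESC-derived cells, against 12.07 and 12.12 in fetal cells, with differences of 0.14 and -0.06 and overlapping origins. Epas1, which encodes HIF-2 alpha and is strong in endothelium, had 7.31 and 8.13 in ESC-derived cells, against 8.21 and 7.89 in fetal cells, or -0.90 and 0.24. The mean of 9 endothelial markers was 7.07 and 7.71 in CORIN+ and CORIN- ESC-derived cells, against 8.36 and 7.45 in fetal CORIN+ and CORIN- cells. Of these 9, 3 were at least 2-fold lower and 0 higher in the CORIN+ pair, and 0 were lower and 1 higher in the CORIN- pair. The part of endothelial cells in the values of Epas1 was not tested. Hif3a, a further alpha subunit gene and no member, had 8.86 and 9.03 in CORIN+ and CORIN- ESC-derived cells, against 8.74 and 7.25 in fetal cells. Its differences were 0.12 and 1.78 (3.44-fold in the CORIN- pair), and it was named after its values had been seen. HIF alpha subunits are regulated chiefly at the protein, which these arrays do not measure.

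Other genes of these pathways were counted from lists drawn up by pathway, also with earlier results of these data known. Of 36 listed other HIF targets, 34 were measured. Of these, 10 passed 2-fold upwards (2.98% of all genes) and 2 downwards (4.37%) in the CORIN+ pair. In the CORIN- pair, 14 passed upwards (4.54% of all genes) and 0 downwards (3.52%). In both pairs, 9 passed upwards (1.91% of all genes), and the medians were 0.63 and 0.88. Epo, the hormone of red cell formation and the gene in which the hypoxia response element was first studied, had 9.72 and 9.26 in CORIN+ and CORIN- ESC-derived cells, against 6.25 and 6.65 in fetal cells. Its difference of 3.48 in the CORIN+ pair was larger than that of any member, and in the CORIN- pair it was 2.61. Igfbp3, which binds insulin-like growth factors, was at 9.83 and 9.76 in ESC-derived cells, against 7.42 and 7.44 in fetal cells (2.42 and 2.31). Plod2, a collagen lysyl hydroxylase, had differences of 1.91 and 2.43, and the transcriptional repressor Bhlhe40 had 1.94 and 1.91. The remaining 5 that passed in both were Ak4, Stc2, Fam162a, Stc1 and Ppp1r3c. The 2 that were lower in the CORIN+ pair were Lox (-2.34) and Angptl4 (-1.38), both within 2-fold in the CORIN- pair (-0.05 and 0.07). These last 7 genes were named after their values had been seen.

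The HIF machinery (partners, hydroxylases, the VHL ligase, coactivators and Hif3a) had medians of 0.08 and 0.03. Of its 13 genes, 0 were at least 2-fold higher in both pairs (1.91% of all genes) and 1 was lower (2.09%). The lower one was Arnt2, the ARNT relative of neurons, at 10.40 and 10.71 in CORIN+ and CORIN- ESC-derived cells, against 11.49 and 11.87 in fetal cells (-1.09 and -1.16), again beside lower neuron markers. Among 16 measured of 20 other glycolysis genes, which include tissue isozymes and regulators, Pgm1 alone was past 2-fold in both pairs. Pgm1, which joins glycogen to glycolysis, had 10.88 and 10.53 in ESC-derived cells, against 9.48 and 9.02 in fetal cells (2.62- and 2.84-fold). The median of this list was 0.19 in the CORIN+ pair and 0.07 in the CORIN- pair, well below that of the members.

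The mitochondrial branches of glucose use stayed near the median of all genes. None of the 13 measured genes of pyruvate entry, 16 of the TCA cycle and 14 of the respiratory chain passed 2-fold in both pairs in either direction. Their medians were 0.05, 0.11 and -0.05 in the CORIN+ pair and -0.01, 0.04 and -0.07 in the CORIN- pair. The pentose phosphate pathway, the other route for glucose phosphate, had 0 of 8 in both pairs and medians of 0.08 and 0.27. The integrated stress response, which also responds to lack of nutrients, had 2 of 12 genes higher in both, Asns (1.04 and 1.80) and Sesn2 (1.32 and 1.84), with medians of 0.09 and 0.24. Of 9 cell division genes, 0 passed 2-fold in both pairs, with medians of 0.08 and 0.42. Of 12 immediate-early genes, 0 did, with medians of -0.59 and 0.23. In the CORIN+ pair, 4 of these 12 were at least 2-fold lower and 0 higher, against 0 lower and 0 higher in the CORIN- pair. Of all genes, 1.91% were 2-fold higher and 2.09% lower in both pairs.

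**Figure D3:**
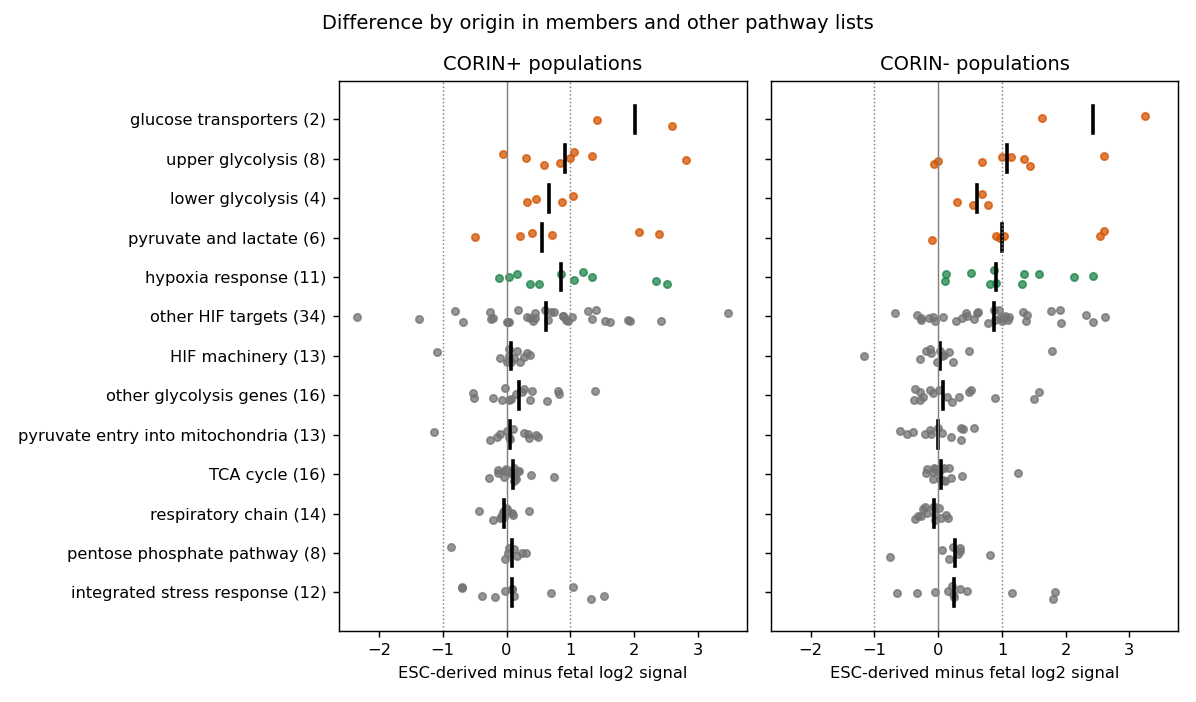
ESC-derived minus fetal difference in log2 signal (horizontal axis) for each gene of the member groups (orange and green) and of other pathway lists (grey), in the CORIN+ pair on the left and the CORIN- pair on the right, with the number of measured genes in brackets. Black bars are list medians and dotted lines mark 2-fold. The member groups drawn and other HIF targets have medians above 0.5 in both panels. Medians of the other 7 lists drawn here lie between -0.07 and 0.27. The HIF alpha subunits (medians of -0.38 and 0.09), cell division and immediate-early genes are not drawn.

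No member passed 2-fold across the CORIN sort, and few of all genes did. Of 33 members, 0 differed by 2-fold between CORIN+ and CORIN- cells in either origin. Among all genes, 0.376% were higher and 0.522% lower in the ESC-derived cells, and 3.16% were higher and 0.456% lower in the fetal VM. With shares this small, a count of 0 among 33 does not set the members apart. The CORIN+ minus CORIN- differences of the members ran from -0.82 to 0.54 in ESC-derived cells and from -0.44 to 0.74 in the fetal VM, with medians of -0.02 and 0.06. The ends of the range in ESC-derived cells were Epas1 at -0.82, followed by Slc2a3 at -0.64, and Ankrd37 at 0.54. In the fetal VM they were Egln3 at -0.44 and Pdk1 at 0.74, followed by Pdk3 at 0.60. Egln3 was lower in the CORIN+ cells of both origins (-0.36 in ESC-derived cells). Pdk1 was higher in the CORIN+ cells of both (0.27 in ESC-derived cells). Neuron markers had median CORIN+ minus CORIN- differences of -0.63 in ESC-derived cells and -0.54 in the fetal VM.

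**Figure D4:**
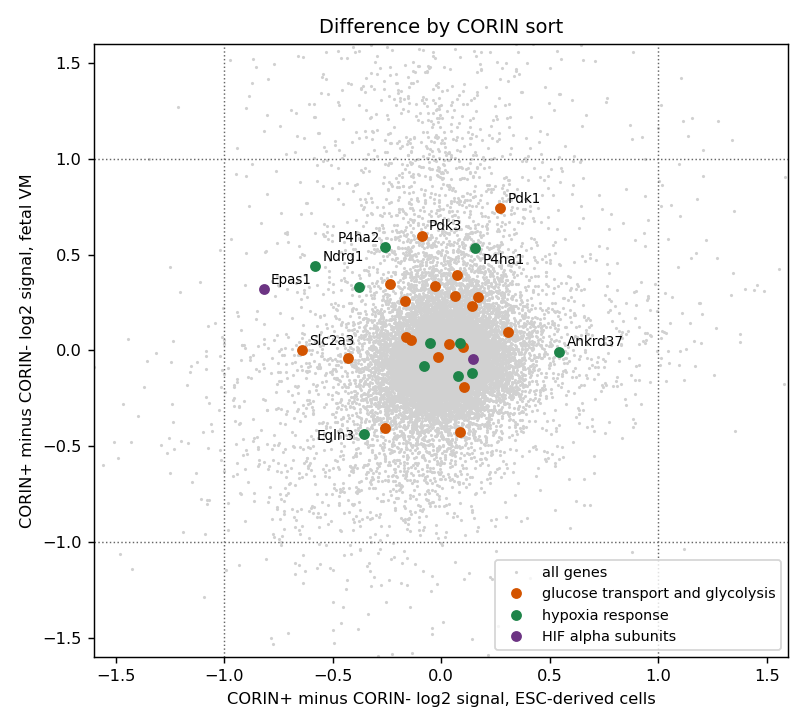
CORIN+ minus CORIN- difference in log2 signal for all genes (grey) and the members (coloured by role), with the ESC-derived cells on the horizontal axis and the fetal VM on the vertical one. Dotted lines mark 2-fold, genes beyond the axes are not drawn, and all 33 members lie inside the 2-fold lines.

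The promoters of the members were read for the core of the hypoxia response element, because the members were listed partly as HIF targets. The 250 bases before the start of each gene, from RefSeq on build GRCm38.p6, were searched for ACGTG and GCGTG on both strands. The palindrome CACGTG counts as a match to ACGTG on each strand. An entry was found for 30 of the 33 measured members, and where a gene has several starts the window with the most matches was taken, for all genes alike. The sequences below run 5′ to 3′ on the strand of the gene, with matches in capitals, a match to the other strand appearing as CACGT or CACGC. They are shown for 4 members that passed 2-fold in both pairs and differ in their matches, for Ldha, which has 5 matches and passed in the CORIN- pair only, and for Tpi1, which passed in both with no match.
Pdk1 (chr2:71872974-71873223, plus strand): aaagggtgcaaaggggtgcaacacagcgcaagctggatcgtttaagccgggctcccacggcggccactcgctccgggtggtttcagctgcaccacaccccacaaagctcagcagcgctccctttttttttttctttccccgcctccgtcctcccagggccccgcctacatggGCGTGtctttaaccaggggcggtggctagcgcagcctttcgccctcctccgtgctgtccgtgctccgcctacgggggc
Slc16a3 (chr11:120948817-120949066, plus strand): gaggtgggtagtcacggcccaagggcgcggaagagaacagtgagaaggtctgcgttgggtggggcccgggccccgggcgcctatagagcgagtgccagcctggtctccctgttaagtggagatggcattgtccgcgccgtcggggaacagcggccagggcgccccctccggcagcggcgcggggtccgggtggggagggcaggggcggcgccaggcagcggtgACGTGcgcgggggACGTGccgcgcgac
Bnip3 (chr7:138909507-138909756, minus strand): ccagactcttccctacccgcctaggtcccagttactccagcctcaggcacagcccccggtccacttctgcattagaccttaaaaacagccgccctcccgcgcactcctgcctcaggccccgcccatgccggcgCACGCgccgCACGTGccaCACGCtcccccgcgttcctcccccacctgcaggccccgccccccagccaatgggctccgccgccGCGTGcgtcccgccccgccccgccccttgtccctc
Egln3 (chr12:54203875-54204124, minus strand): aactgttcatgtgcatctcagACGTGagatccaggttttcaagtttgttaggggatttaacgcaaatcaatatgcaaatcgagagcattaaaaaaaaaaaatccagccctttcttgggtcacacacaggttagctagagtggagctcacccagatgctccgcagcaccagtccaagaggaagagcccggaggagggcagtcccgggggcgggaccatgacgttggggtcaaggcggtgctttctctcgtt
Ldha (chr7:46845554-46845803, plus strand): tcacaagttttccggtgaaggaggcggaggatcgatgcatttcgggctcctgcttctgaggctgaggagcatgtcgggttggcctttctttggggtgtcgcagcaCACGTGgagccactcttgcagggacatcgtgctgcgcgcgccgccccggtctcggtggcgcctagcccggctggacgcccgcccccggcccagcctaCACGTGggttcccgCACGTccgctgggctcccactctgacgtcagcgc
Tpi1 (chr6:124814159-124814408, minus strand): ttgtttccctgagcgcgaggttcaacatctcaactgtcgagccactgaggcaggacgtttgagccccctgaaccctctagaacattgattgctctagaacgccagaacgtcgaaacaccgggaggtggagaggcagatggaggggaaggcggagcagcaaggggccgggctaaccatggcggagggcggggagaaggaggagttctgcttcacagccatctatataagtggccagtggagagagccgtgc

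Bnip3 and Ldha held 5 matches each, Slc16a3 held 2, and Pdk1 and Egln3 held 1. Either motif was present in 28 of 30 members (93.3%) and in 41.5% of 27025 genes with such a window. ACGTG was in 70% of members and 18.1% of all genes, and GCGTG in 60% and 30.4%. The windows of the members were also richer in G and C, with a median GC content of 64% against 52.4% of all genes and a median of 17.5 CpG against 6, and both motifs contain a CpG. Nearly every member had a match, so that its presence could hardly separate one member from another. The members without one were Tpi1 and Eno2. ACGTG was in 60% of the 10 members that passed 2-fold in both pairs and in 75% of the 20 that did not, and GCGTG in 70% and 55%. A match describes letters only, and no binding was measured.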

How the data were processed

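Total RNA of 4 sorted populations, 1 array each, was hybridized by the authors to Affymetrix whole-transcript arrays, and they name GeneSpring 13.0. The deposited values are log2 signals of 28856 transcript clusters. For probe summarization, normalization, background treatment and genome build, the method is not given in the sources used here. Groups came from the sample labels. The platform annotation gives 21789 clusters 1 symbol, 1621 several (not used) and 5446 none, and 21698 were updated by gene identifier to GRCm38.p6 names, which left 19938 genes. Gapdh was not analysed here for this reason.

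Differences of log2 signals were computed on all genes and counted at 2-fold (log2 of 1), without a test. Members and the 18 other lists (224 of 239 entries measured) were chosen with earlier results of these data known. All measured members were named, and from each other list up to 4 genes with the largest mean difference among those 2-fold in both pairs, with markers beside a result and the exceptions stated. The counting and medians were tested on simulated data. Alternatives were quantile normalization, median centring, 32 added to the linear signal, filters at the 20th and 50th percentile of signal, the mean over clusters, and thresholds of 1.5- and 3-fold. Python 3.11.15, numpy 2.4.6, pandas 2.3.3 and matplotlib 3.10.9 were used.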

Additional observations from a re-analysis of the deposited data

Results flagged for a closer look

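For 6 members the CORIN+ minus CORIN- difference had opposite signs in ESC-derived cells and in the fetal VM, each larger than the scaled median absolute deviation over all genes (0.157 in ESC-derived cells and 0.177 in the fetal VM). All of these were lower in CORIN+ than in CORIN- ESC-derived cells and higher in CORIN+ than in CORIN- fetal cells. None of the 12 differences reached 2-fold. The difference between the origins was not tested, since each population has 1 array. How many of all genes meet the same rule was not counted, so these 6 cannot be called unusual. The ESC-derived difference minus the fetal one was -1.14 for Epas1 (-0.82 in ESC-derived cells and 0.32 in the fetal VM), -1.02 for Ndrg1 (-0.58 and 0.44) and -0.80 for P4ha2 (-0.26 and 0.54). It was -0.71 for Adm (-0.38 and 0.33), -0.58 for the lactate transporter gene Slc16a1 (-0.24 and 0.35) and -0.42 for Hk2 (-0.17 and 0.26). In the same arrays, the mean of 12 mesenchyme markers was 8.11 in CORIN+ and 8.92 in CORIN- ESC-derived cells, and 10.72 in CORIN+ and 8.49 in CORIN- fetal cells. The part of such cells in these 6 differences was not tested.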

How the results depend on the processing

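No paired analysis was possible because each population has 1 array and the labels give no replicate numbers, and for the same reason no array could be left out of a group. Under the other planned settings, every difference of a single member moved by less than the spread over all genes, and no difference past 2-fold changed sign. The filters on signal could not change the difference of a single member, and median centring shifts all genes alike. These settings therefore say little about single members. Members close to 2-fold crossed it: with 32 added to the linear signal, Eno2 and Ankrd37 were at 0.98 and 0.93 in the CORIN+ pair and Hk2 at 0.96 in the CORIN- pair, and with quantile normalization Hk2 was at 0.92. With the mean over its clusters, Hk1 was at 0.16 in the CORIN+ pair. The counts depended on the threshold. At 3-fold, members higher were 6 in the CORIN+ pair, 7 in the CORIN- pair and 6 in both. At 1.5-fold, 23 were higher in the CORIN- pair and 1, Epas1, was lower in the CORIN+ pair. At 1.5-fold, 2 members differed by the CORIN sort in ESC-derived cells (Slc2a3 and Epas1) and 2 in the fetal VM (Pdk1 and Pdk3), a setting chosen after seeing the data. Among genes above the 50th percentile of signal, the median of the hypoxia-response members in the CORIN- pair was 1.33, against 0.90 over all 11, since fewer genes enter. Setting each ESC-derived array against each fetal array, also added later, left 10 members at least 2-fold higher in all, without Tpi1. Depth cannot be read from these signals, and dim genes such as Car9 have no detection call.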
